A study of Mus musculus with 6 samples.

Results

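The replication-dependent histone genes encode the core histones H2A, H2B, H3 and H4, around which DNA is wrapped, and the linker histone H1. They were chosen by symbol, as the H1f1 to H1f5, H2ac, H2bc, H3c and H4c genes and every gene whose older symbol begins with Hist1h, Hist2h, Hist3h or Hist4h, except H1f6, which lies outside the H1 range. Of 45281 probes on the array, 89 named such a gene, and these covered 59 of the 19057 genes named on the array, of which 37 had 1 probe and 22 had several. The mouse RefSeq table (GRCm38.p6) holds 70 genes of this kind, so that 11 had no probe named here. Of the 59 genes, 51 were measured, meaning that a probe of the gene was above background, with a detection p below 0.05, on 3 or more of the 6 arrays. They were 2 H1, 15 H2A, 12 H2B, 9 H3 and 13 H4 genes, among 9483 genes measured in all.

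Most histone protein is made while a cell copies its DNA, when new chromatin has to be built on both daughter strands. The replication-dependent genes lie side by side in clusters, have no introns, and are transcribed in S phase. Their messages are the exception among mRNAs of animal cells in that most end in a stem-loop, which is bound by the protein Slbp, and not in a poly(A) tail. Once replication stops, these messages are degraded. Some members are also known to give polyadenylated messages in cells that are not dividing.

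The samples were MC38 cells, a mouse colon carcinoma line, sorted from livers in which they had formed metastases after injection into the spleen. All hosts carried the CD11bDTR transgene, which puts the diphtheria toxin receptor under the promoter of CD11b, a gene of myeloid cells, and which of those cells the toxin removed was not measured. The hosts received phosphate-buffered saline (PBS, 3 samples) or diphtheria toxin (DT, 3 samples) into the peritoneum on days 7 and 9, and the livers were taken on day 10. The labels do not give the age of the mice, nor whether a sample was 1 mouse or a pool, and p-values therefore speak only of the scatter among these arrays, part of which may be technical.

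RNA was copied from an oligo-dT primer and hybridised to 1 bead array per sample, on which between 36.7% and 40.6% of probes lay above background. Values are background-corrected and quantile-normalised log2 signals, a difference is DT minus PBS on that scale with its standard error (SE), and a gene is said to have fallen or risen where its adjusted p in limma was under 0.05. Because the primer binds poly(A), the arrays may not have read all histone messages of a cell alike, and which forms were copied was not tested. Of 10 epithelial markers, 6 (Epcam, Krt18, Krt19, Krt20, Cdx2 and Vil1) were above background on no array. Krt8 and Lgals4 were above background on 3 PBS and 3 DT arrays, and Cdh1 and Cldn7 each on 1 PBS array and 2 DT arrays. In bulk samples such as these, fewer cells in S phase and less histone RNA in each cell cannot be told apart.

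Genes of the H4, H2B and H2A families fell after DT. Of the 51 measured genes, 25 fell and 0 rose, and 26 did not pass the test, where 0.759% of all 9483 genes fell and 0.327% rose. The 25 were 13 of 13 H4, 8 of 12 H2B, 4 of 15 H2A, 0 of 9 H3 and 0 of 2 H1 genes. The families were not tested against each other, their counts change with the processing, and 12 of the 21 H2A probes lie at a log2 signal of 12 or more, where differences were smaller. The median difference was -0.86 over the 51 genes and 0.011 over all genes tested. All DT arrays lay below all PBS arrays for 43 of the 51 genes, against 14.0% of all genes. They lay above for 1, H1f2, against 15.0% of all genes, and the groups overlapped for 7. The difference was negative for 48 of the 51 genes, against 48.7% of all genes.

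Many of these calls stand close to the threshold. An adjusted p between 0.04 and 0.06, limits chosen after the values were seen, was found for 29 of the 51 genes, of which 22 had fallen and 7 had not passed. The unadjusted p was under 0.05 for 42 lower genes (11.9% of all genes) and 1 higher gene. The count of 25 was 7 without PBS 1, 0 without PBS 2, 6 without PBS 3, 0 without DT 1, 0 without DT 2 and 33 without DT 3, while the median stayed between -1.01 and -0.77. The count of all genes past the threshold, 103 in the main fit, was in the same order 63, 3, 74, 4, 0 and 389. Scaling each array to a common median in place of quantile normalisation left 1 call, H2ac6, with a median difference of -0.70 beside 0.17 over all genes, or -0.86 relative to it. Under that scaling all DT arrays lay below all PBS arrays for 11 of the 51 genes, against 2.01% of all genes.

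**Figure D1:**
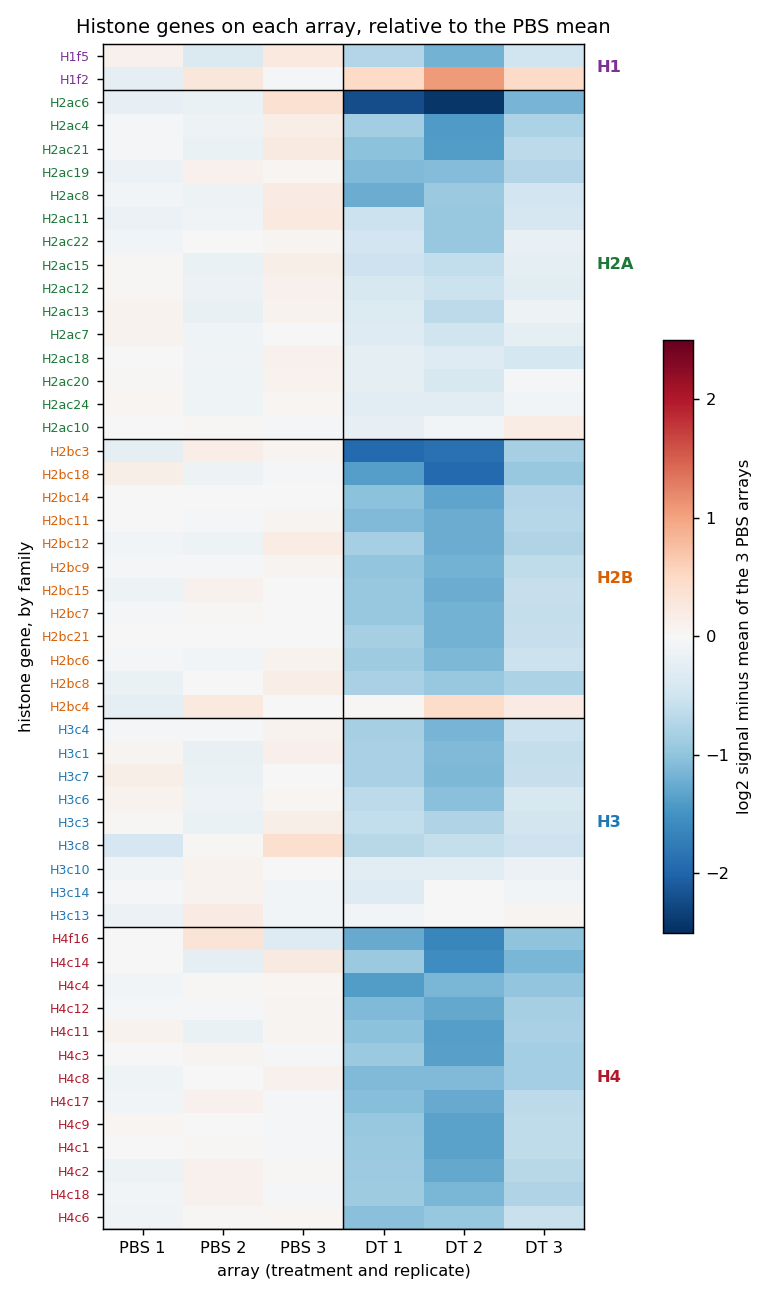
Each row is 1 of the 51 measured histone genes, grouped by family, and each column 1 array. Colour gives the log2 signal minus the mean of the 3 PBS arrays, red for higher and blue for lower. The DT columns are blue for nearly all rows, deepest in DT 2, and the H1f2 and H2bc4 rows are red there.

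The promoters of 4 members that the results turn on are printed here from RefSeq (GRCm38.p6). They are those of H2ac6, with the largest difference of any member by its brightest probe, H4c4, with the smallest adjusted p, H2bc18, with the largest difference in the Hist2 cluster, and H1f2, the 1 gene with all DT arrays above all PBS arrays. Each runs 5′ to 3′ on the strand of its gene, from 250 bases before the annotated start to 50 after it. Capitals mark 3 motifs searched on both strands, which do not overlap here, and a motif on the other strand is seen as its reverse complement. They are the CCAAT box, the TATAAA box and the octamer, which reads ATTTGCAT. The windows are chr13:23683910-23684209 on the minus strand for H2ac6, chr13:23581318-23581617 on the plus strand for H4c4, chr3:96269450-96269749 on the plus strand for H2bc18 and chr13:23738557-23738856 on the plus strand for H1f2.
H2ac6: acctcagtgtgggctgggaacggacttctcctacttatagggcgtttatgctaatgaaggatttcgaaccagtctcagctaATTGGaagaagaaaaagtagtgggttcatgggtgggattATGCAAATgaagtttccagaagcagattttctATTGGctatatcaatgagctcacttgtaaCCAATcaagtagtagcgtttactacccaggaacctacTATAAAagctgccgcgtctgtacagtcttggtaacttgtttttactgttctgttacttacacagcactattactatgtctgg
H4c4: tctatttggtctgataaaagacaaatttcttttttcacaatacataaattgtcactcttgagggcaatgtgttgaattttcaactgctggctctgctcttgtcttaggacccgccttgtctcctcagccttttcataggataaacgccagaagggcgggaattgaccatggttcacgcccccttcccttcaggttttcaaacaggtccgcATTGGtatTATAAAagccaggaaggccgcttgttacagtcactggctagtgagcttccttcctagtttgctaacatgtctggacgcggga
H2bc18: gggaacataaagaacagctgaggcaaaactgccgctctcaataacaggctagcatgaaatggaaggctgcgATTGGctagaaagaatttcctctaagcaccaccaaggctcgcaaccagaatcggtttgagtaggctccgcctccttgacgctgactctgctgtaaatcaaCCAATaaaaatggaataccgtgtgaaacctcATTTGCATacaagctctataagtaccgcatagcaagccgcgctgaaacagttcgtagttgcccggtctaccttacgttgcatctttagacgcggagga
H1f2: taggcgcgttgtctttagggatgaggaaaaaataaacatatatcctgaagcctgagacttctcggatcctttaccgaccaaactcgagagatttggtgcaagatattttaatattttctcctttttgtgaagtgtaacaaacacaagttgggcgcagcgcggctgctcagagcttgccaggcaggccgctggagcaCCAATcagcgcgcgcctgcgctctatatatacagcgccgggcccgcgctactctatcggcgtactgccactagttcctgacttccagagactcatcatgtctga

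A promoter window was found for 53 of the 59 genes. CCAAT was in 83.0% of them, against 41.1% of the windows of all 27025 genes in the table, and TATAAA was in 60.4% against 15.7%. The octamer was in 26.4% against 1.97%, and all 14 windows holding it belonged to H2A (7 of 17) and H2B (7 of 12) genes. In 6 H2A and H2B pairs, described below, the starts lie 164 to 281 bases apart. Their windows overlap, so that 1 motif can be counted for both genes. CCAAT was in every H1, H2A, H2B and H3 window and in 3 of the 12 H4 windows. Another motif searched on both strands, TTTGGCGC, an E2F site, was in 0 of the 53 windows and in 0.585% of all windows, which says only that these letters are not there. Of the genes that fell, 7 of 24 with a window held the octamer, and of those that did not pass, 4 of 22 did. CCAAT was in 15 of 24 against 22 of 22, and TATAAA in 15 of 24 against 11 of 22. The fallen genes and the others differ in family, since all measured H4 genes fell, and these shares were not tested.

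The 13 H4 genes encode the same protein, the partner of H3 in the tetramer at the centre of the nucleosome, and all of them fell. Of these, 12 fell when the probes of a gene were averaged, 4 without PBS 1, 4 without PBS 3, 2 with the replicate block, and 0 without PBS 2, DT 1 or DT 2, without a filter on dim probes or with common-median scaling. The counts of all genes past the threshold in these settings were, in the same order, 113, 63, 74, 30, 3, 4, 0, 0 and 27. The H4 differences in the main fit were from -1.30 to -0.84, with a median of -1.01. The adjusted p of the H4 genes in limma was from 0.0212 to 0.0482. H4c4 had the smallest adjusted p of all histone genes. H4c4 read 8.35, 8.45 and 8.47 on the PBS arrays and 7.03, 7.28 and 7.44 on the DT arrays, a difference of -1.18 ± 0.16 (SE, adjusted p 0.0212). All 3 DT arrays lay below all 3 PBS arrays, and DT 1 was the lowest. The only H4 gene outside the large clusters, H4f16 (older symbol Hist4h4, on chromosome 6), had the largest difference of the family by its brighter probe, and its other probe was at -0.91. With the probes of a gene averaged, H4f16 was at -1.10, beside -1.21 for H4c14 and -1.18 for H4c4. H4f16 read 7.42, 7.72 and 7.08 on the PBS arrays and 6.14, 5.79 and 6.41 on the DT arrays, a difference of -1.30 ± 0.21 (SE, adjusted p 0.0434). H4c14 read 8.03, 7.80 and 8.25 on the PBS arrays and 7.09, 6.48 and 6.89 on the DT arrays, a difference of -1.21 ± 0.20 (SE, adjusted p 0.0426). H4c14, in the Hist2 cluster, was lowest on DT 2, as H4f16 was.

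The 11 H4 genes of Hist1 are H4c4 and the 10 described next. H4c12 read 9.76, 9.75 and 9.85 on the PBS arrays and 8.68, 8.51 and 8.95 on the DT arrays, a difference of -1.08 ± 0.16 (SE, adjusted p 0.035). H4c11 read 10.39, 10.15 and 10.38 on the PBS arrays and 9.29, 8.93 and 9.49 on the DT arrays, a difference of -1.07 ± 0.18 (SE, adjusted p 0.0436). H4c3 read 8.94, 9.02 and 8.92 on the PBS arrays and 8.04, 7.60 and 8.12 on the DT arrays, a difference of -1.04 ± 0.17 (SE, adjusted p 0.0434). All 3 were lowest on DT 2 and highest, among the DT arrays, on DT 3. H4c8 read 8.71, 8.81 and 8.91 on the PBS arrays and 7.71, 7.72 and 7.97 on the DT arrays, a difference of -1.01 ± 0.15 (SE, adjusted p 0.035). H4c17 read 9.52, 9.70 and 9.53 on the PBS arrays and 8.52, 8.33 and 8.93 on the DT arrays, a difference of -0.99 ± 0.18 (SE, adjusted p 0.0459). H4c9 read 10.36, 10.30 and 10.25 on the PBS arrays and 9.37, 8.97 and 9.67 on the DT arrays, a difference of -0.97 ± 0.19 (SE, adjusted p 0.0459). H4c8 was nearly level on DT 1 and DT 2, and the other 2 were lowest on DT 2. H4c1 read 11.71, 11.74 and 11.68 on the PBS arrays and 10.79, 10.37 and 11.08 on the DT arrays, a difference of -0.96 ± 0.19 (SE, adjusted p 0.0462). H4c2 read 7.71, 7.94 and 7.85 on the PBS arrays and 6.93, 6.56 and 7.14 on the DT arrays, a difference of -0.96 ± 0.18 (SE, adjusted p 0.0459). H4c18 read 9.82, 9.99 and 9.84 on the PBS arrays and 8.99, 8.74 and 9.14 on the DT arrays, a difference of -0.93 ± 0.16 (SE, adjusted p 0.0442). None of these genes had a DT array above a PBS array. H4c6 read 10.73, 10.84 and 10.86 on the PBS arrays and 9.77, 9.87 and 10.26 on the DT arrays, a difference of -0.84 ± 0.17 (SE, adjusted p 0.0482). Unlike the other Hist1 H4 genes apart from H4c4 and H4c8, H4c6 was lowest on DT 1.

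H2B pairs with H2A in the outer dimers of the nucleosome, and 8 of its 12 measured genes fell. The median difference was -0.93, in a range from -1.54 to 0.23. H2bc3 read 7.37, 7.78 and 7.68 on the PBS arrays and 5.67, 5.75 and 6.79 on the DT arrays, a difference of -1.54 ± 0.28 (SE, adjusted p 0.0459). H2bc18 read 8.64, 8.37 and 8.47 on the PBS arrays and 7.12, 6.55 and 7.55 on the DT arrays, a difference of -1.42 ± 0.23 (SE, adjusted p 0.0434). H2bc14 read 10.13, 10.11 and 10.13 on the PBS arrays and 9.10, 8.80 and 9.38 on the DT arrays, a difference of -1.03 ± 0.17 (SE, adjusted p 0.0441). For H2bc3 and H2bc18 the DT arrays were themselves spread over about 1 log2 unit, and the groups did not overlap. H2bc11 read 11.48, 11.43 and 11.55 on the PBS arrays and 10.37, 10.25 and 10.77 on the DT arrays, a difference of -1.02 ± 0.17 (SE, adjusted p 0.0436). H2bc12 read 10.91, 10.86 and 11.17 on the PBS arrays and 10.16, 9.74 and 10.23 on the DT arrays, a difference of -0.94 ± 0.18 (SE, adjusted p 0.0459). H2bc9 read 10.95, 10.99 and 11.08 on the PBS arrays and 10.03, 9.83 and 10.37 on the DT arrays, a difference of -0.93 ± 0.17 (SE, adjusted p 0.0459). These 3 genes were lowest on DT 2 and, among the DT arrays, highest on DT 3. H2bc7 read 11.59, 11.64 and 11.60 on the PBS arrays and 10.66, 10.42 and 11.03 on the DT arrays, a difference of -0.91 ± 0.18 (SE, adjusted p 0.0459). H2bc8 read 6.16, 6.32 and 6.48 on the PBS arrays and 5.50, 5.38 and 5.53 on the DT arrays, a difference of -0.85 ± 0.15 (SE, adjusted p 0.0459). H2bc7 was lowest on DT 2, while the 3 DT arrays of H2bc8 were close to each other, and neither gene had overlapping groups.

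Of the 4 H2B genes that did not pass, 3 lay just outside the threshold, with no overlap of the groups. H2bc15 differed by -0.92 ± 0.19 with an adjusted p of 0.0501, H2bc6 by -0.85 ± 0.18 with 0.0509 and H2bc21 by -0.86 ± 0.18 with 0.0509. The exception was H2bc4. H2bc4 read 10.04, 10.51 and 10.26 on the PBS arrays and 10.31, 10.72 and 10.48 on the DT arrays. The groups overlapped, and the difference was 0.23 ± 0.18 (adjusted p 0.455).

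H2A genes ranged widely. Of the 15 measured genes, 4 fell, and the differences ran from -1.93 to -0.04 with a median of -0.46. H2ac6 read 7.74, 7.78 and 8.33 on the PBS arrays and 5.74, 5.52 and 6.80 on the DT arrays, a difference of -1.93 ± 0.31 (SE, adjusted p 0.0417). This was a 3.81-fold lower signal and the largest difference of any histone gene by the brightest probe of each. A dimmer probe of H3c7 was at -2.69, with DT 1 and DT 2 near background. For H2ac6, DT 3 lay between the other 2 DT arrays and the PBS arrays. H2ac4 read 8.69, 8.59 and 8.90 on the PBS arrays and 7.85, 7.31 and 7.93 on the DT arrays, a difference of -1.03 ± 0.19 (SE, adjusted p 0.0459). H2ac21 read 11.60, 11.49 and 11.88 on the PBS arrays and 10.63, 10.27 and 10.99 on the DT arrays, a difference of -1.02 ± 0.20 (SE, adjusted p 0.0482). H2ac19 read 10.87, 11.14 and 11.07 on the PBS arrays and 9.92, 9.95 and 10.29 on the DT arrays, a difference of -0.97 ± 0.16 (SE, adjusted p 0.0441). H2ac21 and H2ac19 lie in Hist2, and none of the 4 genes had overlapping groups.

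Of the other 11 H2A genes, 7 had all DT arrays below all PBS arrays without passing the test. H2ac8 differed by -0.88 ± 0.20 (adjusted p 0.0573) and H2ac11 by -0.63 ± 0.19 (adjusted p 0.0936). H2ac22 differed by -0.54 ± 0.20, H2ac15 by -0.46 ± 0.16 and H2ac12 by -0.40 ± 0.15, with adjusted p from 0.133 to 0.151. H2ac7 and H2ac18 were at -0.35 ± 0.15 and -0.33 ± 0.15, with adjusted p of 0.196 and 0.208. The groups overlapped for H2ac13 (-0.37 ± 0.18), H2ac20 (-0.23 ± 0.16), H2ac24 (-0.20 ± 0.15) and H2ac10 (-0.04 ± 0.16).

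H3, whose tail carries many of the known chromatin marks, had 9 measured genes, of which 0 passed the test in limma. The unadjusted p was under 0.05 for 6 of them, all lower, where 11.9% of all genes were lower at such a p. In other settings 5 fell with a normexp offset of 50, 5 without background correction, 5 with an intensity trend and 6 with array weights. Of all genes, 350, 293, 415 and 565 fell there. With the authors' normalised values 3 fell (162 of all genes), at a detection p under 0.01 3 (152), without DT 3 4 (220) and with averaged probes 1 (75). With the replicate block, common-median scaling, no filter or any other array left out, 0 fell. H3c1 (-0.83 ± 0.17), H3c4 (-0.84 ± 0.18) and H3c7 (-0.83 ± 0.18) were just outside the threshold, with adjusted p of 0.0509, 0.0517 and 0.0521. Each of these 3 had all DT arrays below all PBS arrays. H3c4 read 11.73, 11.75 and 11.86 on the PBS arrays and 10.95, 10.62 and 11.24 on the DT arrays. H3c6 (-0.70 ± 0.19), H3c3 (-0.61 ± 0.16), H3c8 (-0.60 ± 0.20) and H3c10 (-0.23 ± 0.14) had no overlap either, with adjusted p from 0.0688 to 0.346. The 2 H3 genes measured in Hist2 overlapped between the groups. H3c14 was at -0.13 ± 0.15, and common-median scaling turned its sign, to 0.08. H3c13 read 12.92, 13.27 and 13.00 on the PBS arrays and 13.00, 13.06 and 13.14 on the DT arrays. The difference of H3c13 was 0.0005 ± 0.15 (SE), and its 95% interval ran from -0.34 to 0.34.

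H1 binds the DNA that enters and leaves the nucleosome, and its 2 measured genes had opposite signs and did not pass the test, each at an unadjusted p under 0.05. H1f5 read 7.34, 6.87 and 7.49 on the PBS arrays and 6.50, 6.05 and 6.73 on the DT arrays. H1f5 differed by -0.81 ± 0.22 (adjusted p 0.0776), with no overlap of the groups. H1f2 read 9.62, 10.14 and 9.80 on the PBS arrays and 10.34, 10.92 and 10.34 on the DT arrays. H1f2 differed by 0.68 ± 0.21 (adjusted p 0.101), with all DT arrays above all PBS arrays and DT 2 the highest. A second probe of H1f2 gave 0.74, also without overlap. H1f2 passed the threshold as higher with a normexp offset of 50, an intensity trend or array weights, with adjusted p from 0.0285 to 0.0414. In the same settings H1f5 passed as lower. Genes past the threshold numbered, in the same order, 654, 772 and 1059 of all genes. Of the unmeasured H1 genes, H1f1 was above background on 2 PBS arrays and 0 DT arrays, and H1f3 and H1f4 on none.

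By cluster, the Hist1 and Hist2 genes had like medians. Hist1, on chromosome 13, had 41 of 46 genes measured, of which 20 fell, with a median of -0.85. Hist2, on chromosome 3, had all 9 genes measured, of which 4 fell, with a median of -0.86. The difference between these clusters was not tested, since genes of a cluster are not replicates. Hist3, on chromosome 11, had 3 genes with a probe, H2aw, H2bu2 and H2bu1-ps, and none was measured. Hist4, on chromosome 6, is H4f16 alone. In chromosomal order Hist1 falls into 2 blocks, a split made after the values were seen. In the first, 8 of 17 measured genes fell (median -0.92), and in the second 12 of 24 (median -0.85). H2bc1 and H2ac1, a neighbouring pair of Hist1 known for their use in the testis, were not measured either.

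**Figure D2:**
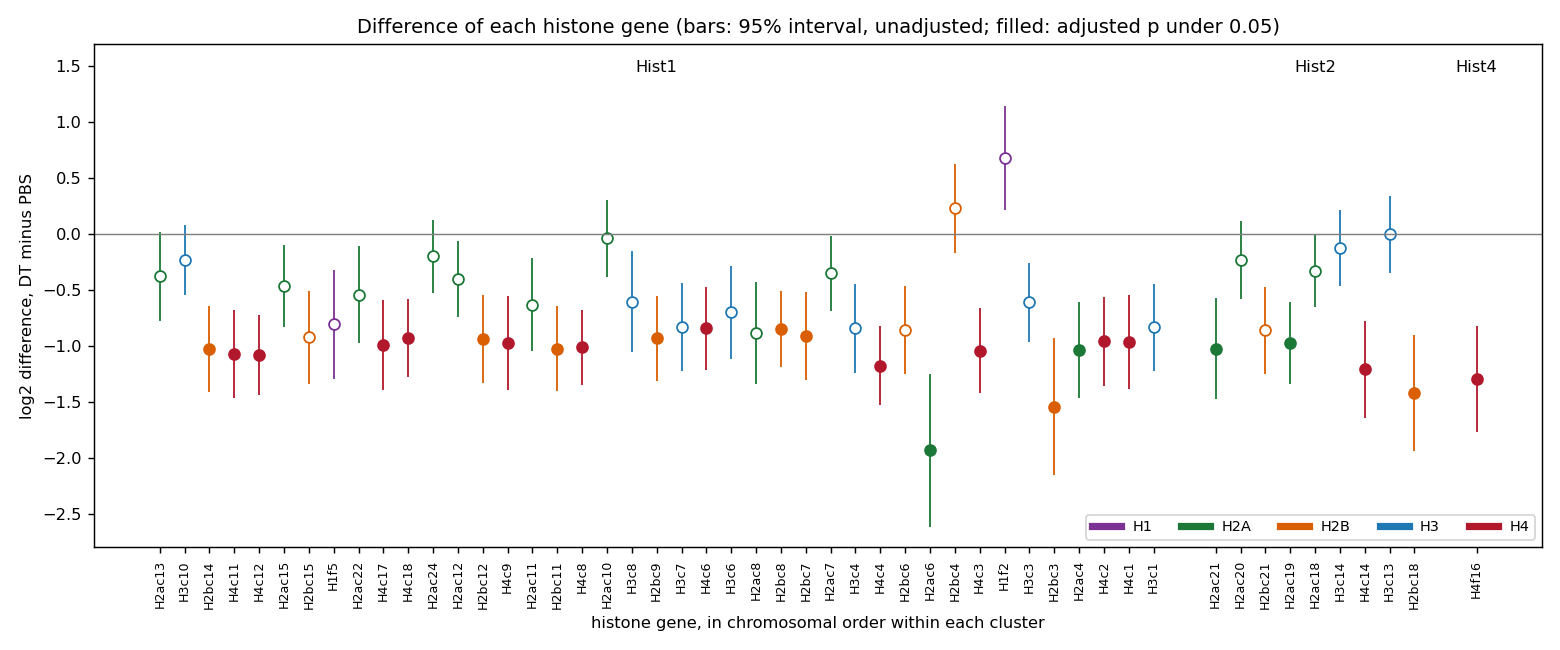
Points are the log2 difference, DT minus PBS, of each measured histone gene, in chromosomal order within Hist1, Hist2 and Hist4. Bars are unadjusted 95% intervals from limma, colours are families, and filled points had an adjusted p under 0.05. All 13 H4 points are filled and lie between -1.30 and -0.84, and H1f2 and H2bc4 stand above 0 inside Hist1.

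H2A and H2B genes often face away from each other from a shared promoter region. With starts at most 1000 bases apart, a limit set after the values were seen, 6 such pairs were found among the genes with a promoter window, and 5 had both genes measured. All 10 genes of these had a negative difference, and in 0 pairs did both genes fall. H2ac12 was at -0.40 and its partner H2bc12 at -0.94, and H2ac15 was at -0.46 and H2bc15 at -0.92. H2ac7 was at -0.35 and H2bc7 at -0.91, and H2ac11 was at -0.63 and H2bc11 at -1.02. H2ac8 and H2bc8 were at -0.88 and -0.85. H2bc4 and H2bc21 had no window, so their strand was not read and their neighbours were not counted as pairs. H2ac6, 240 bases from H2bc4, was at -1.93 and H2bc4 at 0.23, and H2ac20, 192 bases from H2bc21, was at -0.23 and H2bc21 at -0.86. The difference within a pair was not tested, and the 2 genes are read by different probes.

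The DT arrays were not alike. The median deviation of the 51 genes from their PBS mean was -0.88 on DT 1, -1.13 on DT 2 and -0.58 on DT 3, beside -0.027, -0.021 and 0.060 on the PBS arrays. Over all genes tested it was from -0.029 to 0.022 on the 6 arrays. Among the 43 histone genes without overlap that were lower, DT 2 was the lowest array in 34 (79.1%) and DT 3 the highest DT array in 41 (95.3%). Over all 1323 genes of that kind the shares were 62.8% and 70.4%. In most of these genes DT 3 thus lay closest to PBS and DT 2 farthest from it, among the histone genes and among all genes of that kind.

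The 72 measured probes of these genes gave a similar count. Of them 36 fell and 0 rose in a fit over 14903 probes, where 0.866% fell and 0.584% rose. All DT arrays lay below all PBS arrays for 60 of the 72 (13.0% of all probes) and above for 2, both of H1f2 (15.4%). By family, 17 of 19 H4, 11 of 16 H2B, 5 of 21 H2A, 3 of 13 H3 and 0 of 3 H1 probes fell. The sequences of the probes were not used here, and coding regions of a family are nearly identical, so that 1 probe may read several members and the members are not independent of each other.

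Several measured probes were available for 19 genes, of which 17 had the same sign in all. The probes differed by over 0.5 for 6 genes. H3c7 was at -0.83 by its brightest probe and -2.69 by the other, which fell. That other probe read 5.19, 5.05 and 7.05 on the DT arrays. DT 1 and DT 2 were near background there, with detection p of 0.030 and 0.043. H3c14 was at -0.13 and -1.29, H2ac20 at -0.23 and -1.32, and H3c10 at -0.23, -0.91 and -0.95. H2bc21 was at -0.86 and 0.08 and H2ac18 at -0.33 and 0.37, the 2 genes whose probes disagreed in sign. For 6 genes that did not pass in the fit over genes, 1 probe fell in the fit over probes. For H2bc21 this was the brightest probe itself, with an adjusted p in limma of 0.0509 over genes and 0.0489 over probes. For the others it was another probe. Counts by gene thus depend on which probe stands for it, and calls near the threshold on the set of values tested.

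**Figure D3:**
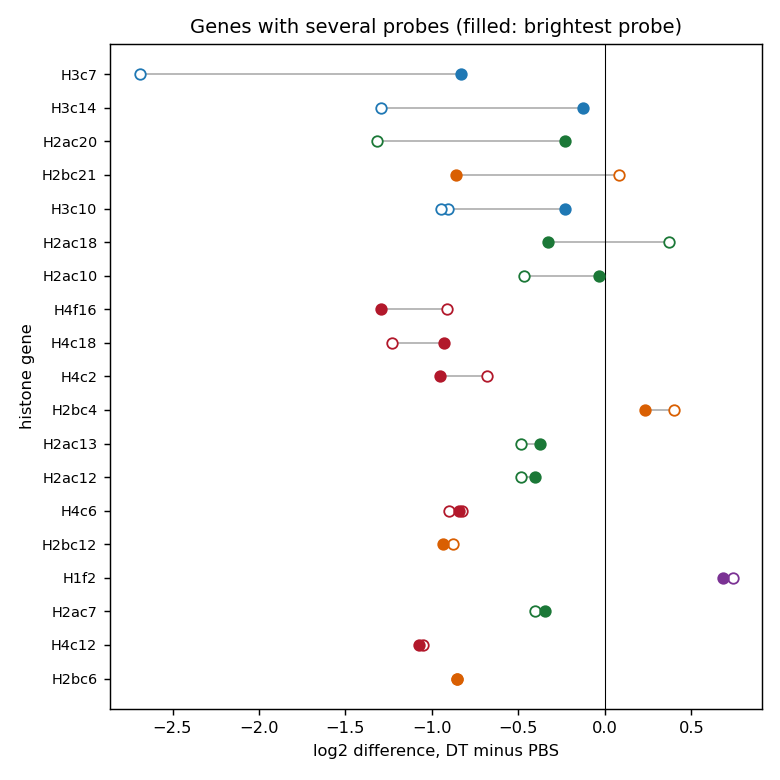
Each line is 1 of the 19 histone genes with several measured probes, and points are the log2 differences, DT minus PBS, of its probes, filled for the brightest. H3c7, H3c14 and H2ac20 span over 1 log2 unit, and the line of H2bc21 and that of H2ac18 cross 0.

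The bright histone probes had the smaller differences. Among 15 histone probes with a mean log2 signal of 12 or more, 12 of them of H2A genes, the median difference was -0.37. It was -0.86 for 19 probes between 10 and 12, -0.99 for 21 between 8 and 10, and -0.91 for 17 dimmer ones, limits chosen after the values were seen. Over all probes tested, the medians in the same ranges were between -0.00107 and 0.032. Across the 72 probes, which share arrays and partly sequence, Pearson's r between brightness and difference was 0.38 and Spearman's rho 0.45, and across the 21 H2A probes they were 0.48 and 0.57. The brightest, of H2ac24, had deposited signals between 22638 and 31644, on arrays whose highest signals were between 29170 and 32987. Whether the top of the scale held these differences down was not tested.

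**Figure D4:**
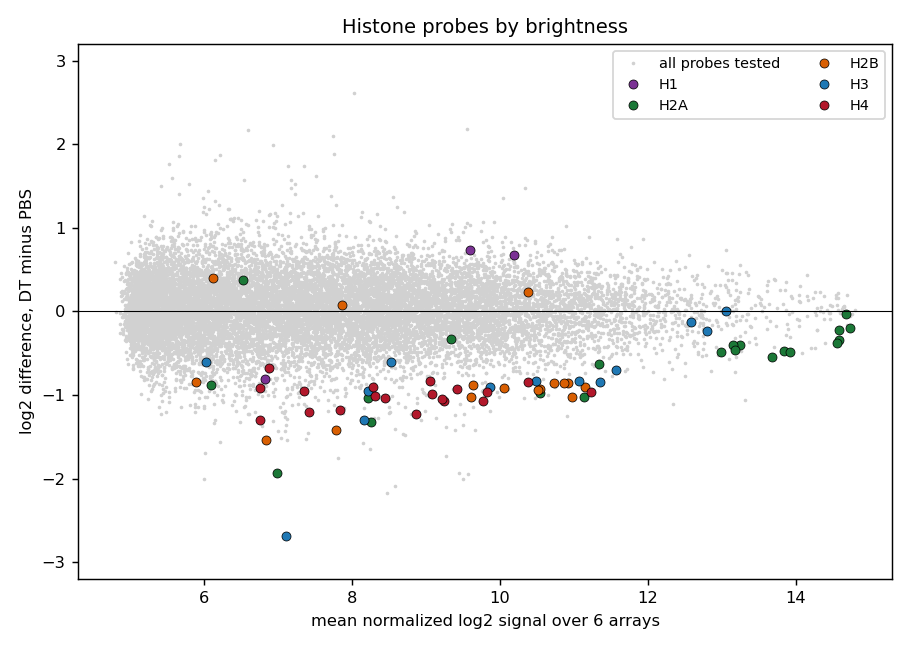
The x axis is the mean normalised log2 signal over the 6 arrays and the y axis the log2 difference, DT minus PBS. Grey points are all 14903 probes tested and coloured points the 72 histone probes by family. The histone probes at 12 or more lie between -0.54 and 0.0005, and most histone probes between 8 and 12 lie near -1.

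The replacement variants, most of which are made throughout the cell cycle from polyadenylated messages, did not pass the test. Of 13 listed, 9 were measured, with 0 fallen, 0 risen and a median of 0.10, or 0.29 with common-median scaling, under which all genes had a median of 0.17. The 2 with the smallest p were H3f3b, which encodes H3.3, and H2aj. H3f3b read 12.78, 12.76 and 12.98 on the PBS arrays and 13.24, 13.42 and 13.25 on the DT arrays, a difference of 0.46 ± 0.15 (SE, adjusted p 0.113). H2aj read 8.37, 8.40 and 8.52 on the PBS arrays and 8.04, 7.73 and 8.12 on the DT arrays, a difference of -0.47 ± 0.16 (SE, adjusted p 0.125). The groups did not overlap for either, and H3f3b was higher and H2aj lower on all DT arrays. On this list the unadjusted p was under 0.05 for these 2 genes only, and among all 9483 genes for 1131 lower and 1135 higher ones. With array weights, an intensity trend or no background correction, 1 gene of the list passed, H2aj as lower in the first and H3f3b as higher in the other 2.

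Genes of histone mRNA processing and histone gene transcription had a median of 0.05, or 0.21 with common-median scaling, over 16 measured of 21 listed, with 0 called and 3 at an unadjusted p under 0.05, of which Tut4 and Sympk were lower and Cpsf3 higher. Among all 9483 genes, 1131 were lower and 1135 higher at such a p. Cpsf3 read 5.92, 6.05 and 5.94 on the PBS arrays and 6.09, 6.76 and 6.84 on the DT arrays, a difference of 0.60 ± 0.20 (SE, adjusted p 0.125). Cpsf3, the endonuclease of the cleavage complex, had all DT arrays above all PBS arrays. Slbp, the stem-loop binding protein, had a probe that did not pass the filter. Tut4, a terminal uridylyltransferase, was not above background on any DT array, so that its signal was at least 1.31-fold lower there (log2 means 5.44 in PBS and 4.80 in DT, adjusted p 0.0573). Sympk read 8.19, 7.91 and 8.06 on the PBS arrays and 7.58, 7.54 and 7.60 on the DT arrays, a difference of -0.48 ± 0.15 (SE, adjusted p 0.102). Sympk, the scaffold of the cleavage complex, had no overlap of the groups. Tut4 fell with the authors' normalised values, with array weights and without DT 3, and Sympk fell with array weights.

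Genes of DNA replication and S phase had a median of -0.08, or 0.10 with common-median scaling, over 38 measured of 41 listed, with 0 called and 11 at an unadjusted p under 0.05, of which 7 were lower. Among all 9483 genes, 1131 were lower and 1135 higher at such a p. Rpa2 read 8.45, 8.48 and 8.72 on the PBS arrays and 7.61, 7.27 and 8.03 on the DT arrays, a difference of -0.91 ± 0.20 (SE, adjusted p 0.0568). Chaf1b read 9.17, 9.06 and 9.36 on the PBS arrays and 8.38, 8.14 and 8.68 on the DT arrays, a difference of -0.80 ± 0.18 (SE, adjusted p 0.0568). Rpa2, a subunit of the single-strand binding protein, and Chaf1b, a subunit of the chaperone that loads H3 and H4 on new DNA, had no overlap of the groups and were, like most of the histone genes, lowest on DT 2. In other settings up to 6 genes of this list passed. With array weights 6 fell, namely Cdt1, Chaf1b, E2f2, Pold1, Rpa2 and Top2a, and 4 of these, Chaf1b, Pold1, Rpa2 and Top2a, fell with a detection p under 0.01 and without DT 3. With an offset of 50 the same 4 fell and Tyms rose. Of all genes, 565 fell with array weights, 152 with a detection p under 0.01, 220 without DT 3 and 350 with an offset of 50. The difference between the histone genes and these lists was not tested.

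**Figure D5:**
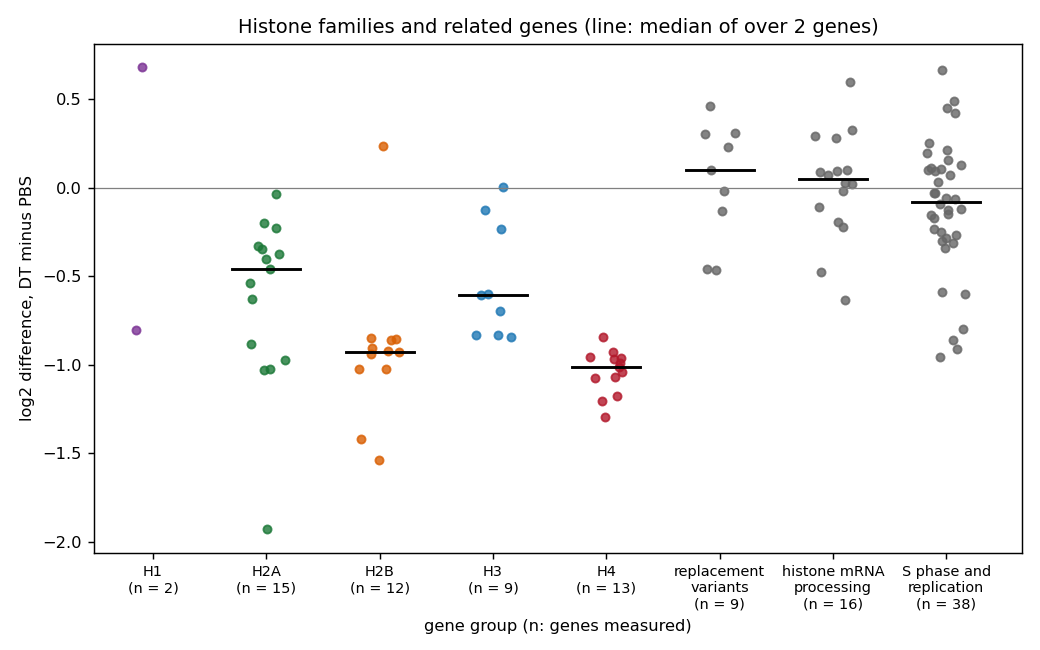
Points are the log2 difference, DT minus PBS, of the measured genes of each histone family and of 3 related lists, and the line is the median where there are over 2 genes. The medians are -0.46 for H2A, -0.93 for H2B, -0.61 for H3 and -1.01 for H4, and between -0.08 and 0.10 for the 3 lists. With common-median scaling they are -0.25, -0.72, -0.48 and -0.79 for these families, between 0.10 and 0.29 for the lists and 0.17 for all genes.

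Among the markers of other cells, 3 neutrophil markers rose, and 0 markers of the other lists passed the test. All 9 measured macrophage and monocyte markers of 14 listed had a negative difference, with a median of -0.88, 0 called and 7 at an unadjusted p under 0.05. Among all 9483 genes, 1131 were lower and 1135 higher at such a p. Marco and Clec4f were above background on no array, and Itgam, which encodes CD11b, was not measured. The summed log2 level of the 9 measured markers was from 63.0 to 73.5 on the PBS arrays and from 61.5 to 63.9 on the DT arrays. PBS 3 was the low one, at a mean deviation of -0.75 beside 0.33 and 0.41 on PBS 1 and PBS 2, while the histone genes on PBS 3 had a median deviation of 0.060. Of 6 measured neutrophil markers of 10 listed, S100a8 rose by 2.18, and Lcn2 and Retnlg, above background on no PBS array, rose at least 2.77-fold and 2.08-fold. S100a9 (2.09, adjusted p in limma 0.0509) did not pass. Ltf, above background on no PBS array and at least 1.57-fold higher in DT, did not pass either (adjusted p 0.0646). Elane went the other way, at -0.21 (adjusted p 0.528). The summed level of the 6 was from 32.6 to 36.6 in PBS and from 40.2 to 45.8 in DT. Lymphocyte markers (2 measured, median -0.38), hepatocyte markers (4, 0.16), fibroblast markers (7, 0.16) and Hba-a1 of the erythroid list (-0.69) had 0 called and 1, 2, 1 and 0 at an unadjusted p under 0.05, and 0 of 6 endothelial markers were measured. What part other cells had in the histone values was not tested.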

How the data were processed

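RNA of MC38 cells sorted from tumour-bearing livers (3 PBS and 3 DT samples) was copied with a kit primed by oligo-dT and carried a biotin label, per the labels' protocols. The linear intensity of the beads for each probe, not normalised between arrays, was deposited with a detection p-value beside it, per the file headers. Normalised log2 values were deposited too. How the authors made these is not given in the sources used here, and they served as an alternative. All columns matched a labelled sample.

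The platform's annotation named the probes. Symbols were updated by Entrez identifier for 34807 of them and kept for 78, and 10378 probes without a gene and 18 with several were left out. Signals were normalised with the neqc function (limma 3.58.1, R 4.3.3, normexp background by detection p-value, offset 16, quantile, log2). The offset shrinks differences of dim probes, and quantile normalisation takes out a change common to all genes. A probe was kept if 3 or more arrays had a detection p below 0.05, and the brightest probe stood for a gene. The 9483 genes were tested with lmFit and eBayes, two-sided, with Benjamini-Hochberg adjustment over all of them and a threshold of 0.05. Precision is limited by the number of arrays.

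The members and gene lists were chosen with earlier results of these data known. Every measured member is named with its values, and of each related list the 2 genes with the smallest p, beside those that passed in another setting. That rule asked for a promoter of every fallen member, and 4 promoters are printed in its place, chosen after the values were seen. Motifs were searched in the RefSeq windows on both strands. Same-numbered PBS and DT arrays did not deviate together (correlations of -0.10, -0.18 and 0.03), so that numbers were not taken as pairs. The fit was also run on simulated arrays with known changes, drawn with the means and scatter of the measured genes. Alternatives covered background, scaling, the filter, the model, the choice of probe and the removal of each array in turn. Figures were drawn with matplotlib 3.10.9.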

Additional observations from a re-analysis of the deposited data

How the results depend on the processing

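The 25 histone genes that fell were 36 and 1 risen with a normexp offset of 50, 33 without background correction, 32 with the authors' normalised values, 32 at a detection p under 0.01, 27 with averaged probes and 36 of 72 with every probe tested. The count of members past the threshold was 40 with an intensity trend and 39 with array weights (1 risen in each), 5 with the replicate block, 1 with common-median scaling and 0 without a filter, where 46 members and 2942 genes had an unadjusted p under 0.05. Leaving out 1 array gave 0 to 33 members. Without DT 2, 0 genes of the array passed limma, while 38 members and 1299 genes had an unadjusted p under 0.05.

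All genes past the threshold numbered 103, and 654, 558, 27, 313, 0, 264, 30, 772, 1059 and 216 with the offset of 50, no background correction, common-median scaling, the authors' values, no filter, the stricter detection p, the replicate block, the trend, array weights and every probe. Leaving out 1 array gave 0 to 389.

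The medians of the histone genes, of 4 families and of 2 clusters stayed negative in all settings run. With common-median scaling they were -0.25 for H2A, -0.79 for H4 and -0.64 for Hist2, and without background correction -0.45 for H3, -0.77 for H4 and -0.69 for Hist2. For H3 the median was -0.75 with array weights and -0.83 with every probe. Medians of H1 and Hist4, planned, were dropped after their values were seen, since they hold 2 genes and 1, which were followed singly. Signs turned for H2ac18 with averaged probes (0.023) and H3c14 with common-median scaling (0.082). Leaving out 1 array gave -0.15 to 0.055 for H2ac10, which turned without DT 1, and -0.069 to 0.10 for H3c13, which turned without PBS 1, PBS 3 or DT 3. The causes were not tested. Common-median scaling keeps 11 of 51 members without overlap against 2.01% of all genes.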

Other observations

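Protein-coding genes that are no histone genes also lie inside Hist1. Of 49 such neighbours, picked after the histone values were seen, 4 were measured, and 0 passed the test in limma or had an unadjusted p under 0.05. Zfp184, a zinc finger protein, was at 0.04, Prss16, a protease of the thymus, at 0.24, Zfp322a, another zinc finger protein, at -0.28, and Hfe, which regulates iron uptake, at 0.42. All DT arrays lay below all PBS arrays for Zfp322a, as for 14.0% of all genes, and the groups overlapped for the other measured neighbours. With 4 genes, most of them dim, this describes few of the neighbours.

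Histone members were 25 of the 72 genes that fell on the whole array (34.7%) and 0.538% of the genes tested. Among the other 9432 genes, 47 fell (0.498%).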
